A study of Mus musculus with 6 samples.

Results

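Genes that break down the branched-chain amino acids leucine, isoleucine and valine, and the propionate and ketone bodies that arise beside them, were followed in subcutaneous white fat of mice without Nampt in adipocytes. The members are 31 genes taken by symbol from the known steps of these routes, and they were chosen with earlier results of these data known. Each was found as 1 line among the 40428 distinct lines of the count table. All 31 were among the 19272 features with enough counts to be tested. RNA was sequenced from 3 ANKO mice, whose floxed Nampt alleles were removed by a Cre under the adiponectin promoter, and from 3 control mice with the floxed alleles (flox/flox), all on the C57BL/6J background, fed regular chow and housed at room temperature. The labels used here name no age or sex. The adiponectin promoter is active in adipocytes, while whole tissue was sequenced, so the other cell types of the fat keep Nampt. For every value below, fewer adipocytes and less RNA per adipocyte cannot be told apart.

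Branched-chain amino acids are first transaminated to keto acids by the aminotransferases BCAT1 in the cytosol and BCAT2 in mitochondria. The branched-chain keto acid dehydrogenase complex then removes a carboxyl group and commits the carbon skeleton to oxidation, and it is switched off by the kinase BCKDK and on by the phosphatase PPM1K. From there leucine runs to acetoacetate and acetyl-CoA, valine to propionyl-CoA and isoleucine to acetyl-CoA and propionyl-CoA, and propionyl-CoA enters the citric acid cycle as succinyl-CoA through a biotin enzyme and a cobalamin enzyme. Differentiated adipocytes are known for a high capacity for this pathway, which feeds carbon into fatty acid synthesis.

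Depth was 19748962 to 23860596 counts per library. Nampt itself, which encodes the salvage enzyme that makes the NAD precursor nicotinamide mononucleotide, had 48.6, 50.2 and 47.0 CPM in ANKO mice 1 to 3, against 83.6, 93.0 and 87.0 CPM in controls 1 to 3 (CPM, counts scaled to library size and composition; edgeR quasi-likelihood test, adjusted p = 0.00416). The 12 adipocyte markers summed to 7796 to 9690 CPM in ANKO and 17709 to 26937 CPM in control, so the labelled tissue carried its defining markers in each library. RNA of skeletal muscle differed between single mice: 15 muscle markers summed to 18993, 3294 and 103 CPM in ANKO 1 to 3 and to 6296, 1588 and 9899 CPM in controls 1 to 3. The labels number the 3 samples of a group without naming the animals, so the p-values measure the spread between these samples. Throughout, each numbered sample is treated as 1 mouse.

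Many breakdown genes were lower in ANKO fat. Of the 31 members, 11 fell at an adjusted p below 0.05 and none rose, where 1.10% of all 19272 tested features fell and 0.488% rose. Because the members were chosen with earlier results of these data known, the shares over all features are given as description only. The 11 were Klf15, Aldh6a1, Ivd, Mccc2, Mccc1, Acat1, Acadsb, Pcca, Mut, Dbt and Oxct1, in order of their fold change. In 23 members all ANKO values lay under all control values, as in 10.2% of all tested features, and in 8 the groups overlapped. In none did ANKO lie wholly above control, as in 9.19% of all features. A negative log2 fold change (ANKO over control) was found in 28 members and in 49.9% of all features, and the median was -0.64 over the members, against 0.000676 over all features. At an unadjusted p below 0.05, 23 members were lower, beside 6.90% of all features. The number that fell depended on the test and on single mice: it was 19 with DESeq2, 7 with muscle RNA as a covariate, 7 without ANKO 1, 3 without ANKO 3 and 7 without control 2. The calls lower over all features moved as well, from 212 to 498, 95, 93, 55 and 92 in the same fits. Without ANKO 3 the median log2 fold change of the members was -0.618. Mccc1, Mccc2 and Acat1 were called in each of the 15 alternatives, and Klf15, Aldh6a1, Acadsb and Pcca in each except the fit without ANKO 3.

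**Figure D1:**
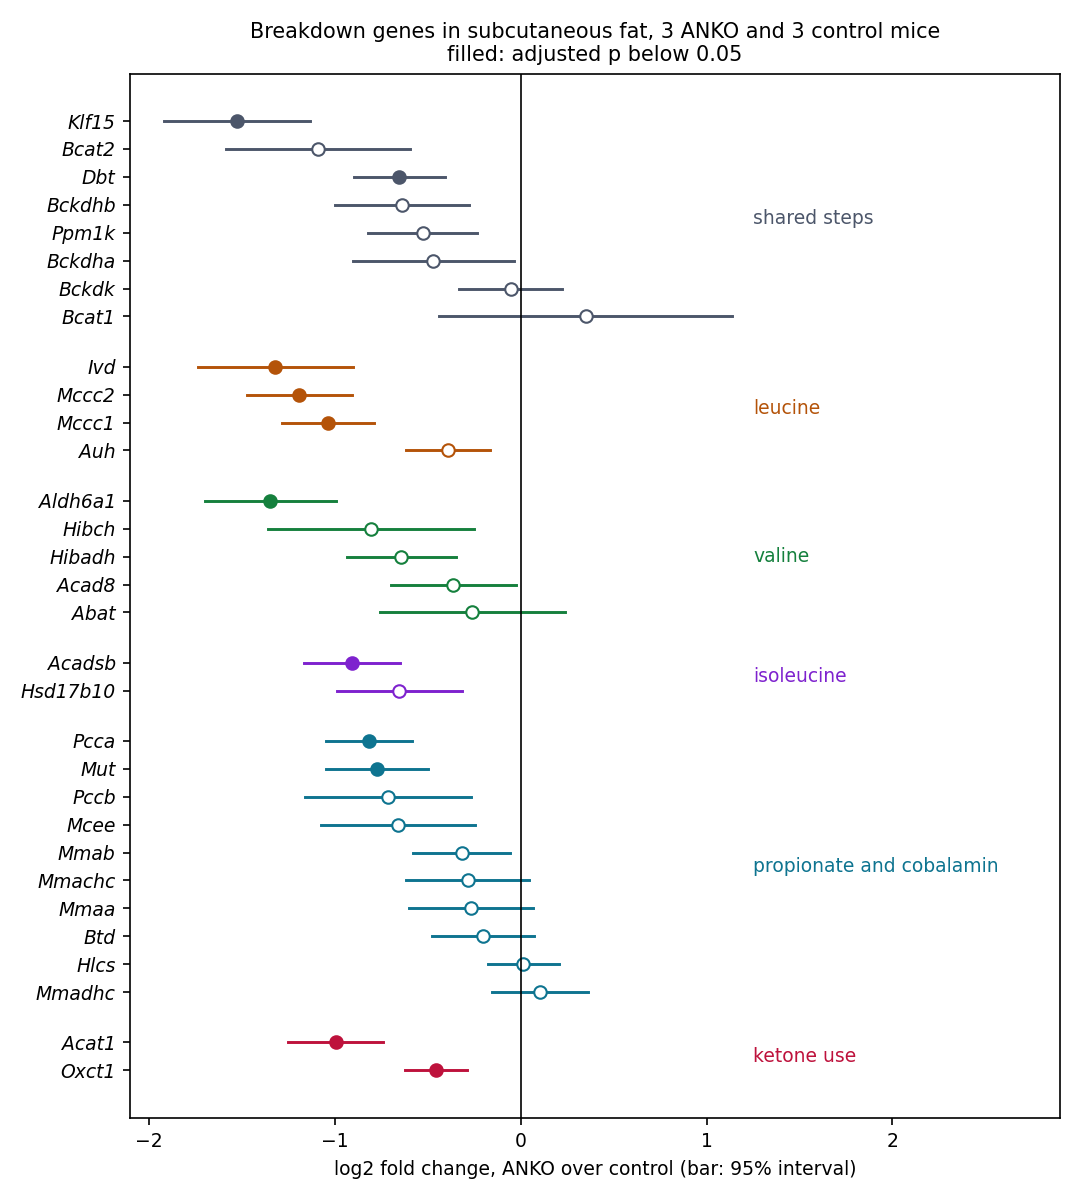
Log2 fold change (ANKO over control, x axis) of the 31 members by branch of the pathway, with 95% intervals from the edgeR fit on 3 mice per group; filled points passed the test. Filled points lie between -1.53 for Klf15 and -0.46 for Oxct1, and 3 members, Bcat1, Mmadhc and Hlcs, lie to the right of 0.

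Of the 8 members grouped under the steps that all 3 amino acids share, 2 fell, the transcription factor gene Klf15 and the enzyme gene Dbt. The other 6 did not pass, of which 3 overlapped between the groups. Klf15 (chromosome 6, 90462576 to 90475238, plus strand, GRCm38), a zinc-finger transcription factor known to activate amino acid breakdown genes, had 32.9, 27.5 and 29.5 CPM in ANKO 1 to 3, against 66.1, 87.3 and 105.5 CPM in controls 1 to 3. The ANKO values lay close together and below every control, while the controls were spread widely. This was a log2 fold change of -1.53 (SE 0.169, adjusted p = 0.00837), the largest fall among the members. Dbt (chromosome 3, 116513070 to 116549981), the transacylase core of the keto acid dehydrogenase, had 31.6, 33.2 and 30.2 CPM in ANKO and 44.45, 48.5 and 56.2 CPM in control, again without overlap. Its log2 fold change was -0.65 (SE 0.107, adjusted p = 0.0294), and it passed in 1 of the 6 leave-one-out fits, without control 1 (highest adjusted p = 0.127). It did not pass with the muscle covariate (adjusted p = 0.0865) or with the replicate number as a block (edgeR adjusted p = 0.0714).

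Bcat2, the mitochondrial aminotransferase, had 56.0, 58.95 and 59.8 CPM in ANKO, against 85.5, 127.8 and 158.5 CPM in control. The groups did not overlap, but the controls were spread widely, and Bcat2 did not pass the test (log2 fold change -1.09, SE 0.209, adjusted p = 0.0663). Bcat1, the cytosolic form, was scarce, at 5.56 ± 2.42 CPM in ANKO and 4.37 ± 1.13 CPM in control (SD, n = 3 each; adjusted p = 0.761). Per kilobase of transcript, Bcat1 was the lowest of all 31 members, at 0.710 CPM in ANKO and 0.558 CPM in control, and Bcat2 stood at 32.9 CPM in ANKO and 69.9 CPM in control.

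The E1 subunits of the dehydrogenase, Bckdha and Bckdhb, did not pass the test. Bckdha averaged 90.3 ± 15.2 CPM in ANKO and 125 ± 27.9 CPM in control (log2 fold change -0.47, adjusted p = 0.342), and its groups overlapped. Bckdhb averaged 31.3 ± 4.49 CPM in ANKO and 48.8 ± 8.72 CPM in control (-0.64, adjusted p = 0.111) without overlap. Of the pair of regulators, the activating phosphatase gene Ppm1k averaged 24.03 ± 0.153 CPM in ANKO and 34.65 ± 5.70 CPM in control (-0.53, adjusted p = 0.105). The inhibitory kinase gene Bckdk averaged 61.1 ± 8.25 CPM in ANKO and 63.45 ± 6.02 CPM in control (-0.05, 95% interval -0.33 to 0.22, adjusted p = 0.914). The groups overlapped for the kinase transcript, and for the phosphatase transcript they did not, with ANKO lower.

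In leucine breakdown 3 of 4 members fell. Ivd (chromosome 2, 118861954 to 118882909), isovaleryl-CoA dehydrogenase, had 81.8, 83.9 and 80.8 CPM in ANKO, against 153, 203 and 260.3 CPM in control. ANKO mice were nearly alike and controls were not. On the log2 scale the fold change came to -1.32 (SE 0.1785, adjusted p = 0.0159), and the call was lost without control 2 or without any 1 ANKO mouse (highest adjusted p = 0.0935) and with the muscle covariate.

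The next enzyme, methylcrotonyl-CoA carboxylase, is built from a biotin-carrying alpha subunit, encoded by Mccc1 (chromosome 3, 35959312 to 36000678, minus strand), and a beta subunit, encoded by Mccc2 (chromosome 13, 99948530 to 100015639, minus strand). Mccc1 had 50.25, 55.2 and 53.9 CPM in ANKO, against 101.8, 99.6 and 126 CPM in control (log2 fold change -1.04, SE 0.1075, adjusted p = 0.00618). Mccc2 had 23.2, 30.3 and 23.5 CPM in ANKO, against 55.5, 58.3 and 61.9 CPM in control (log2 fold change -1.19, SE 0.122, adjusted p = 0.00618). The highest ANKO value of each subunit was well under its lowest control value. Auh, the hydratase of the following step, averaged 52.0 ± 2.41 CPM in ANKO and 68.2 ± 7.41 CPM in control, a smaller difference that did not pass (-0.39, adjusted p = 0.117).

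The promoters of these 2 subunit genes and of Klf15 are shown because the subunits of 1 enzyme lie on different chromosomes and both fell in every alternative tried, and Klf15 had the largest fall among the members. The windows run from 250 bases before to 50 bases after the start of the gene, from RefSeq on GRCm38.p6, 5′ to 3′ on the strand of the gene, at chr3:36000629-36000928 (minus) for Mccc1, chr13:100015590-100015889 (minus) for Mccc2 and chr6:90462326-90462625 (plus) for Klf15. Capitals mark matches on either strand. The motif of KLF-type boxes was searched as CACCC. The CCAAT box was searched by its own letters, and the GC box as GGGCGG.
Mccc1: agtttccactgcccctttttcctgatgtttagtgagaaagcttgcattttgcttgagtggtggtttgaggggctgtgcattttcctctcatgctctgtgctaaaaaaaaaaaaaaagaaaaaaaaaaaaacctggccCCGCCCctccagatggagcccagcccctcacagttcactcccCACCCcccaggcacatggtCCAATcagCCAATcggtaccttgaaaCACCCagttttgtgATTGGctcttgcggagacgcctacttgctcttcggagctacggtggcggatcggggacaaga
Mccc2: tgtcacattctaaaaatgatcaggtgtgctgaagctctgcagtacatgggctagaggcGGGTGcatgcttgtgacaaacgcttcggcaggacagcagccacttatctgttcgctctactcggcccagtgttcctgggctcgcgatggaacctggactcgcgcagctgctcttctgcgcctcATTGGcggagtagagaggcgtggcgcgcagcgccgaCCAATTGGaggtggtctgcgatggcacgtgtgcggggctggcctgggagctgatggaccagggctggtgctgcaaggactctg
Klf15: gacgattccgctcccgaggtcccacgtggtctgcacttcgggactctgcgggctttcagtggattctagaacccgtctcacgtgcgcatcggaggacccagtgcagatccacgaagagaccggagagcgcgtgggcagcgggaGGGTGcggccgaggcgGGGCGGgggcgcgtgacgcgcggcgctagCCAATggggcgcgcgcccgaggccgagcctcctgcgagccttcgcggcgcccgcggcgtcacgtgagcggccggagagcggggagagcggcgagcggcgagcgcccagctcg

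Mccc1 and Mccc2 each held 3 CCAAT matches, counting both strands, of which a pair in Mccc2 overlap each other. Mccc1 held 2 CACCC matches and Mccc2 and Klf15 held 1 each, and the GC box was found 1 time in Mccc1 and in Klf15 and 0 times in Mccc2. Windows were found for 26 of the 31 members and for 8 of the 11 called ones. A CACCC match stood in 8 of those 8, a CCAAT match in 6 and a GC box in 4, taking all windows of a gene together. Counted in the same way, 20, 16 and 17 of the 26 members held a match. A share of all genes counted in this way was not taken. Over the 34 windows of the members, 76.5% held the KLF-type motif, against 57.5% of all 32851 windows in the table. The CCAAT box stood in 55.9% of the members' windows and 37.4% of all, and the GC box in 58.8% and 35.7%. The 34 windows come from 26 genes, so a gene with 2 windows counts 2 times, and the 2 windows of Btd and of Mmaa overlap each other. These are matches of letters, with no measure of binding.

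**Figure D2:**
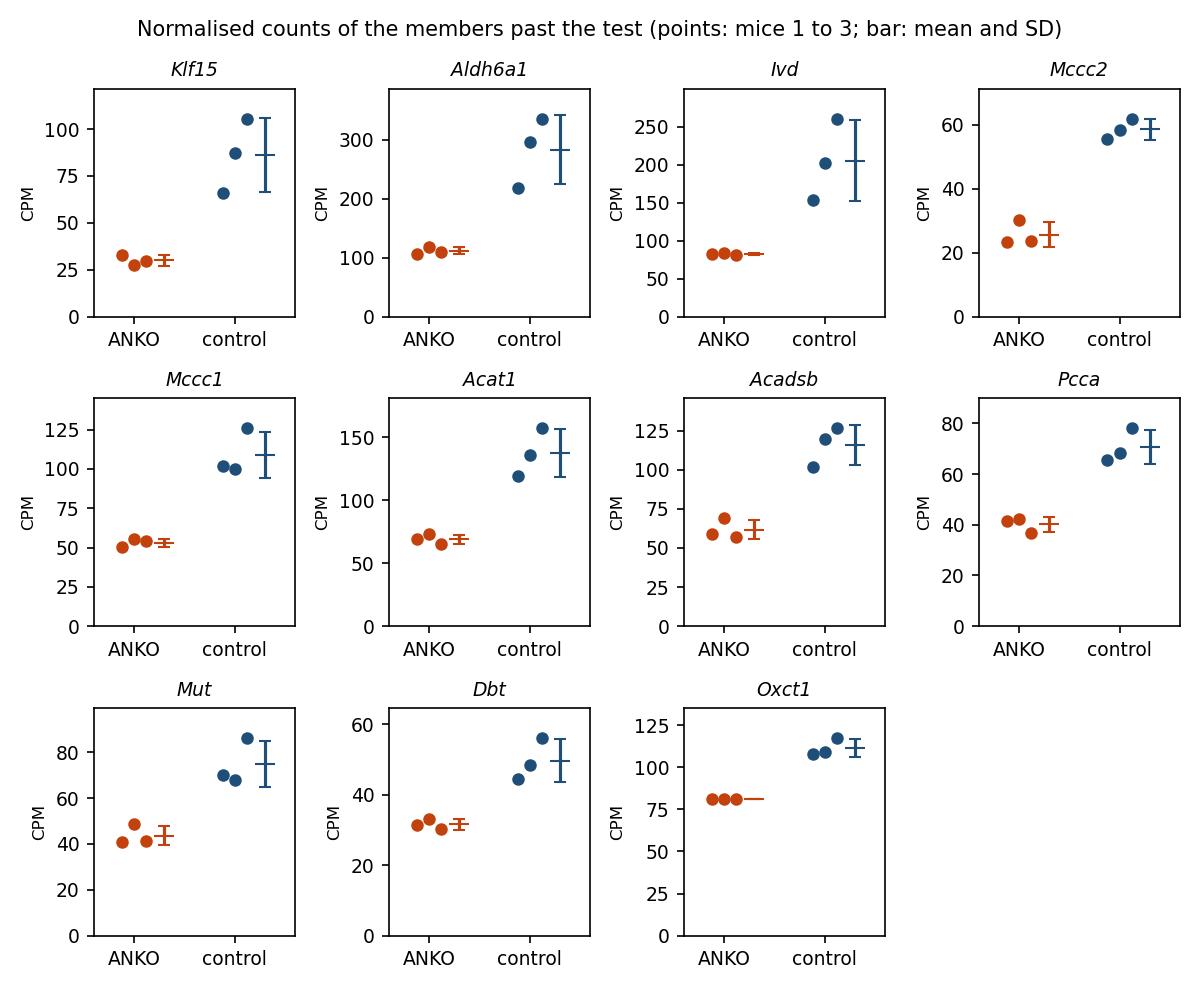
Normalised counts (CPM, y axis from 0) of the 11 members past the test, 1 point per mouse, ANKO left and control right, with the mean and SD of 3 mice beside the points. In each panel all ANKO points lie below all control points, as in Mccc2 with 30.3 CPM at most in ANKO and 55.5 CPM at least in control.

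In valine breakdown 1 of 5 members fell. Aldh6a1 (chromosome 12, 84430717 to 84451004), methylmalonate semialdehyde dehydrogenase, the last step before propionyl-CoA, had 106, 118 and 110.0 CPM in ANKO, against 219, 295 and 335 CPM in control. It was the highest member per kilobase in control, at 83.3 CPM, and the fifth highest in ANKO, at 32.75 CPM. Its log2 fold change was -1.35 (SE 0.153, adjusted p = 0.00837; 0.0540 without ANKO 3). The steps above it had smaller differences that did not pass. Hibadh, 3-hydroxyisobutyrate dehydrogenase, averaged 68.5 ± 6.11 CPM in ANKO and 106.8 ± 17.0 CPM in control (-0.64, adjusted p = 0.0566). Hibch, the hydrolase before it, averaged 45.6 ± 10.9 CPM in ANKO and 79.7 ± 19.5 CPM in control (-0.80, adjusted p = 0.196), so its larger fold came with a wider spread. Acad8, isobutyryl-CoA dehydrogenase, averaged 19.9 ± 3.62 CPM in ANKO and 25.6 ± 1.92 CPM in control (-0.36, adjusted p = 0.344). Abat, the transaminase of GABA and of an amino acid derived from valine, was low and overlapped, at 5.35 ± 0.881 CPM in ANKO and 6.40 ± 1.21 CPM in control (-0.26, adjusted p = 0.710).

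Isoleucine breakdown was represented by 2 genes, of which 1 fell. Acadsb (chromosome 7, 131410601 to 131448944), the short and branched-chain acyl-CoA dehydrogenase, had 59.1, 68.95 and 57.3 CPM in ANKO, against 101.5, 119 and 127 CPM in control. The groups stood well apart (log2 fold change -0.91, SE 0.112, adjusted p = 0.0107; 0.0639 without ANKO 3). Hsd17b10, which oxidises the hydroxy intermediate of isoleucine and is also a part of mitochondrial RNase P, averaged 27.2 ± 0.255 CPM in ANKO and 42.8 ± 8.53 CPM in control without overlap, and did not pass (-0.65, adjusted p = 0.0839).

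**Figure D3:**
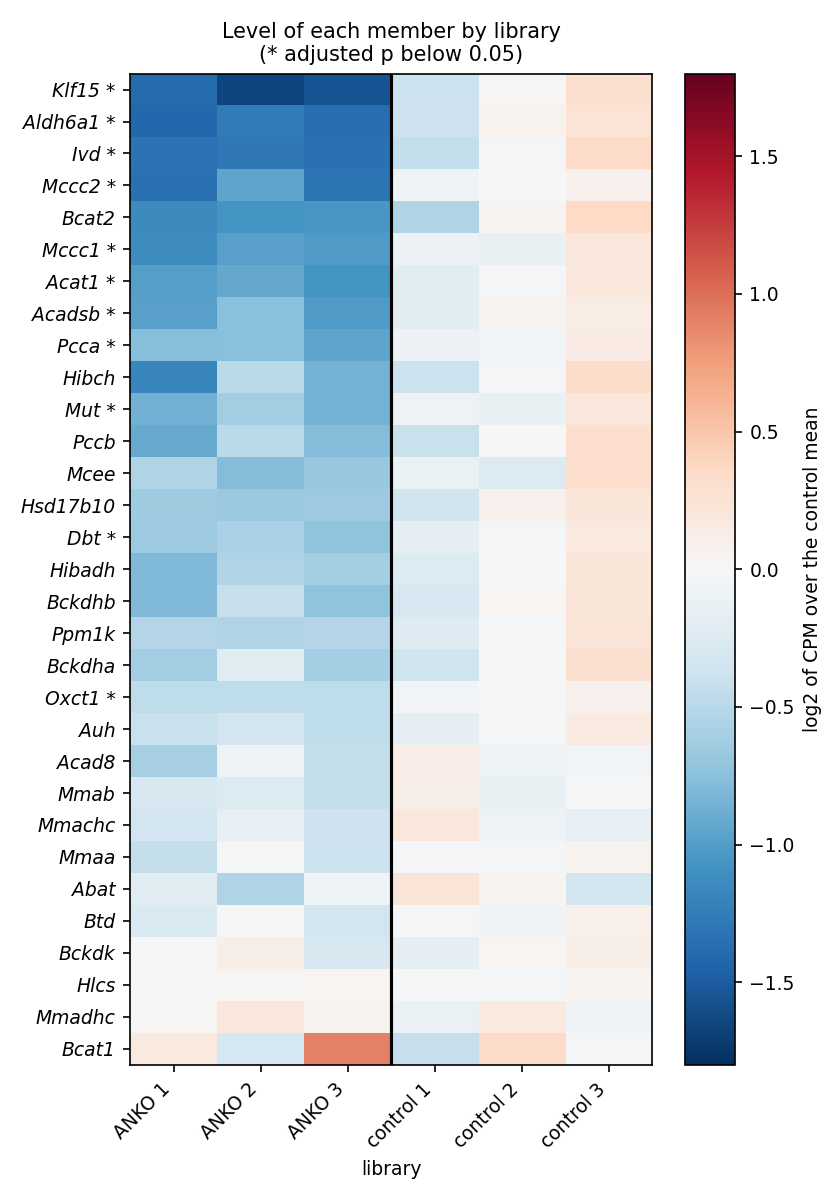
Level of each of the 31 members (rows, ordered by fold change) in each library (columns, ANKO left of control), as log2 of CPM over the control mean of that gene; an asterisk marks the 11 that passed. Rows from Klf15 to Auh are blue in all 3 ANKO columns, the last 4 rows, Bckdk to Bcat1, are pale or mixed, and control 3 is the reddest column in most rows.

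Among propionate and cobalamin genes, 2 of 10 fell. Pcca (chromosome 14, 122534324 to 122891100), the biotin-carrying alpha subunit of propionyl-CoA carboxylase, had 41.5, 42.1 and 36.7 CPM in ANKO, against 65.4, 68.4 and 78.1 CPM in control (log2 fold change -0.82, SE 0.0998, adjusted p = 0.0107; 0.0552 without ANKO 3). Mut (chromosome 17, 40934685 to 40961988), the cobalamin-dependent methylmalonyl-CoA mutase, had 41.05, 48.6 and 41.45 CPM in ANKO, against 70.1, 67.8 and 86.4 CPM in control (-0.77, SE 0.119, adjusted p = 0.0231). The call of Mut was lost without ANKO 1, ANKO 3 or control 2. It was also lost with the muscle covariate (edgeR adjusted p = 0.0759) and with the replicate number as a block (edgeR adjusted p = 0.0617). For both genes no ANKO value reached the control range. Their partners Pccb, the beta subunit, and Mcee, the epimerase between carboxylase and mutase, had like fold changes of -0.71 and -0.66 without overlap, but adjusted p = 0.153 and 0.146.

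The genes that prepare the cofactors stood closer to the control level. The cobalamin genes Mmab (adenosyltransferase), Mmachc (the first processing protein in the cytosol) and Mmaa (the chaperone of the mutase) had log2 fold changes of -0.32, -0.285 and -0.27, with adjusted p = 0.270, 0.471 and 0.510. Mmab (95% interval -0.58 to -0.06) and Mmachc (-0.61 to 0.04) were lower in ANKO without overlap, and Mmaa overlapped. Mmadhc, the partner of Mmachc, averaged 32.3 ± 2.18 CPM in ANKO and 30.1 ± 3.46 CPM in control (0.10, 95% interval -0.15 to 0.36, adjusted p = 0.781). Hlcs, which attaches biotin to the carboxylases, had 30.6, 31.05 and 31.3 CPM in ANKO and 30.2, 30.1 and 31.8 CPM in control (0.01, 95% interval -0.18 to 0.205, adjusted p = 0.971), and Btd, which recycles biotin, averaged 24.5 ± 3.19 CPM in ANKO and 28.2 ± 1.70 CPM in control (-0.20, adjusted p = 0.548). The interval of Hlcs excludes a change as large as that of the carboxylase genes Mccc1, Mccc2 and Pcca. No difference between the fold changes of enzyme and cofactor genes was tested.

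Ketone use had 2 members and both fell. Acat1 (chromosome 9, 53580522 to 53610382), the thiolase that ends both isoleucine breakdown and ketone use, had 69.0, 72.85 and 65.5 CPM in ANKO, against 119.7, 136 and 157 CPM in control (log2 fold change -0.99, SE 0.111, adjusted p = 0.00795). The transcript was present at 0.502 of the control level, with no overlap. Oxct1 (chromosome 15, 4026383 to 4155344), the transferase that activates acetoacetate, had 81.1, 81.25 and 81.3 CPM in ANKO, against 107.8, 109 and 117.5 CPM in control. The difference was small but steady (-0.46, SE 0.07285, adjusted p = 0.0270), and it passed in 0 of the 6 leave-one-out fits (highest adjusted p = 0.127). It did not pass with the muscle covariate (adjusted p = 0.0939) or with the replicate number as a block (edgeR adjusted p = 0.0642).

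Partner transcripts were also compared within each library, where scaling cancels out. With 3 mice against 3 an exact two-sided permutation test cannot go below p = 0.10, and adjustment covers the 7 pairs. The ratio of Mccc1 to Mccc2 counts was 2.17, 1.82 and 2.29 in ANKO and 1.83, 1.71 and 2.03 in control, which overlap (exact permutation p = 0.3, adjusted p = 0.5). For Bckdk over Ppm1k it was 2.62, 2.86 and 2.16 in ANKO, against 1.93, 1.92 and 1.68 in control. Each ANKO ratio of kinase to phosphatase was thus above each control ratio, with a log2 difference of 0.46 at the smallest p the test allows (exact permutation p = 0.10, adjusted p = 0.233).

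The ratio of Bckdha to Bckdhb (2.9, 2.96 and 2.78 in ANKO, 2.47, 2.49 and 2.70 in control) was likewise higher in each ANKO mouse at adjusted p = 0.233 in the exact permutation test. Bcat1 over Bcat2 was 0.0885, 0.0595 and 0.138 in ANKO and 0.0384, 0.0434 and 0.0270 in control, also without overlap and at adjusted p = 0.233 (exact permutation), a log2 difference of 1.34. The ratios of Pcca to Pccb, Dbt to Bckdha and Mut to Mcee overlapped between the groups, with log2 differences of -0.12, -0.19 and -0.13 and adjusted p = 0.5 each (exact permutation).

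**Figure D4:**
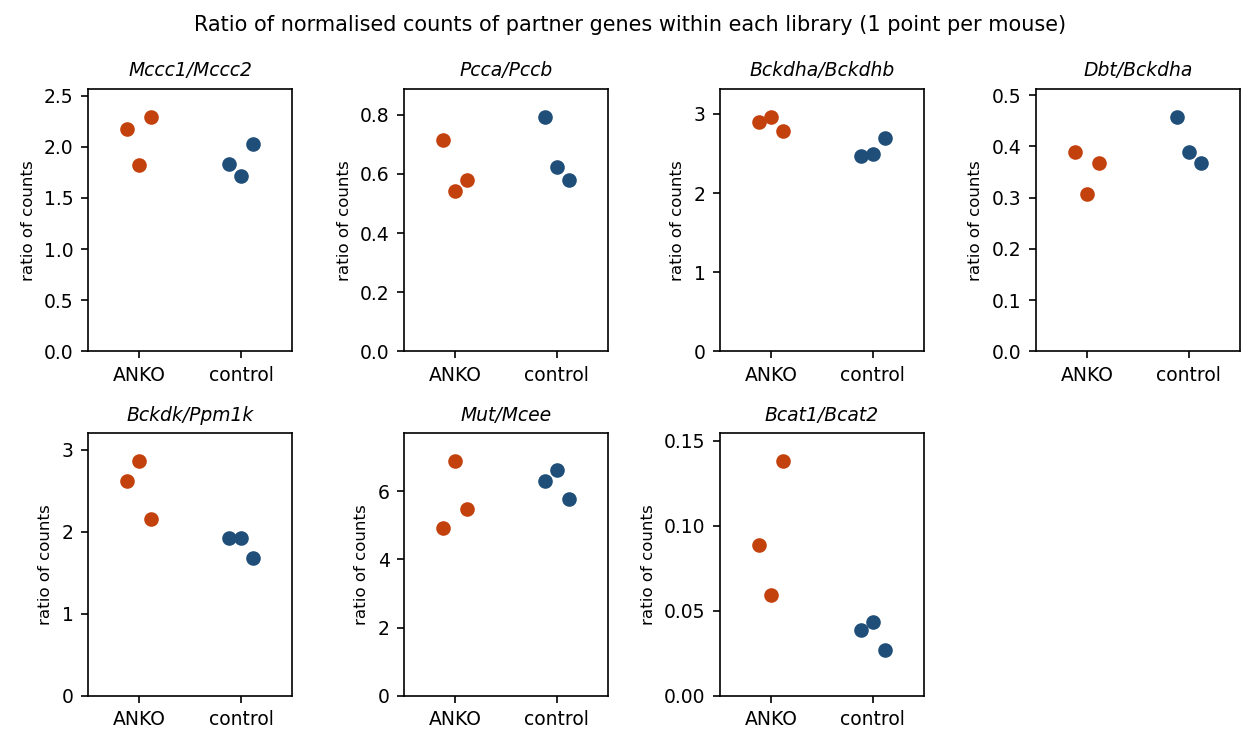
Ratio of normalised counts of 7 pairs of partner genes within each library (y axis from 0), 1 point per mouse, ANKO left and control right. The groups do not overlap for Bckdha/Bckdhb, Bckdk/Ppm1k (2.16 to 2.86 in ANKO, 1.68 to 1.93 in control) and Bcat1/Bcat2, and overlap for the other 4 pairs.

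Within a group the mice also differed. All 31 summed to 1267, 1429 and 1279 CPM in ANKO 1 to 3 and to 1934, 2290 and 2666 CPM in controls 1 to 3, and the ratio of the group means was 0.577. By branch this ratio was 0.483 for leucine, 0.5 for valine, 0.561 for isoleucine, 0.604 for ketone use, 0.619 for the shared steps and 0.708 for propionate and cobalamin. Abundant genes weigh most in such sums: in control Aldh6a1 held 283.2 of the 501.7 CPM of the valine branch. By median log2 fold change the order differed, with leucine at -1.11, isoleucine at -0.78 and ketone use at -0.725. Valine was at -0.64, the shared steps at -0.58 and propionate and cobalamin at -0.30. Control 3 was the highest control for 25 members, among them all 11 that passed, and control 1 the lowest for 21. ANKO 2 was the highest ANKO library for 22 members and the lowest for 6, Klf15 among them. Control 1 was the highest control for 4 members, Abat, Acad8, Mmab and Mmachc. The median member stood at 63.9%, 68.9% and 63.9% of its control mean in ANKO 1 to 3 and at 89.4%, 98.9% and 113% in controls 1 to 3.

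Adipocyte markers moved in the same direction. Their sum was 7796, 9690 and 8595 CPM in ANKO 1 to 3, against 17709, 23974 and 26937 CPM in controls 1 to 3, so that within each group the mice ranked in the same order by this sum as by the sum of the members. Cfd and Car3 weighed most in the control sum, at means of 6970 and 6515 of 22873 CPM. In ANKO they averaged 1148 and 2170 of 8694 CPM. Of the 12 markers 5 fell and none rose (Cfd, Retn, Car3, Adipoq and Plin1), with a median log2 fold change of -0.83 and a range from -2.60 for Cfd to 0.15 for Slc2a4. In 7 all ANKO values lay under all control values, beside 10.2% of all features. Cidec, Pnpla2, Fabp4, Pparg and Slc2a4 overlapped. An unadjusted edgeR p below 0.05 was found for 9, all of them lower. Macrophage markers summed to 745 to 917 CPM in ANKO and 553 to 630 CPM in control, with 1 of 6 called higher (Adgre1), 5 at an unadjusted p below 0.05 and all 6 higher without overlap. Fibroblast markers summed to 2673 to 4199 CPM in ANKO and 2127 to 2824 CPM in control, with 0 of 4 called by edgeR, where 3 had an unadjusted p below 0.05. Endothelial markers summed to 481 to 539 CPM in ANKO and 549 to 688 CPM in control, with none of 4 called by edgeR, where Cdh5 and Kdr were lower without overlap at an unadjusted p below 0.05. Brown adipocyte, mammary epithelial and lymphocyte marker sums overlapped between the groups, with none called. Ucp1, the defining marker of brown adipocytes, averaged 5.14 CPM in ANKO and 0.967 CPM in control without passing. Brown adipocyte markers moved both ways: Ucp1 and Cidea were higher and Ppargc1a lower without overlap. Ppargc1a and Dio2, both lower, had an unadjusted edgeR p below 0.05. The mammary epithelial marker Krt14 was higher without overlap. The part of cell composition in the lower member values was not tested.

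**Figure D5:**
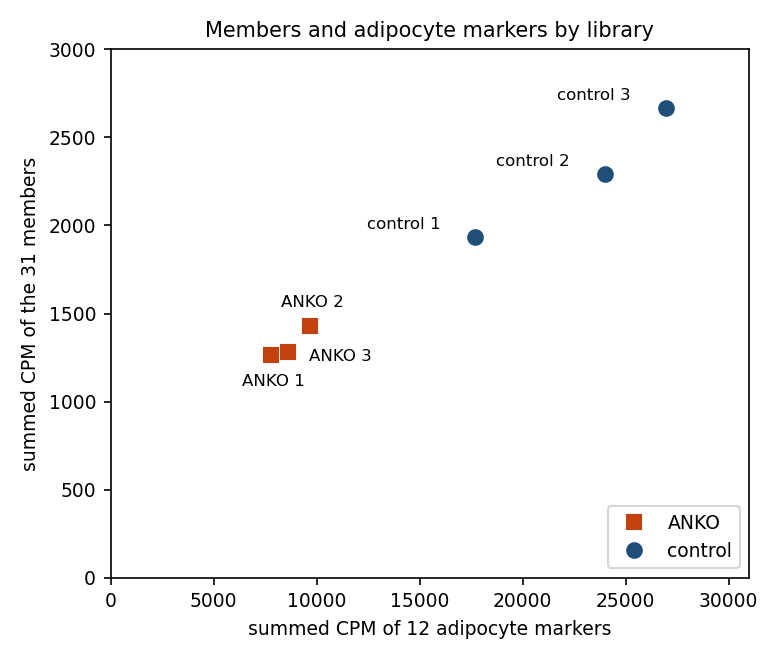
Summed CPM of the 31 members (y axis) against summed CPM of 12 adipocyte markers (x axis) in each library, squares for ANKO and circles for control. The 3 ANKO libraries lie at 1267 to 1429 CPM of members and 7796 to 9690 CPM of markers, below and left of the controls, at 1934 to 2666 and 17709 to 26937 CPM.

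A further list held 36 genes around the same pathway, none of them a member. Of these, 1 fell and none rose, beside 1.10% and 0.488% of all features. Their log2 fold changes ran from -2.15 to 1.10 with a median of -0.03, 19 of them negative and 17 positive. In 6 all ANKO values lay under all control values, beside 10.2% of all features, and in 5 above, beside 9.19%. In the edgeR test 11 had an unadjusted p below 0.05 in either direction, and the share of all features in either direction was not taken. Of the 11, Slc43a1, Echs1, Hadh, Cd320, Acss3 and Suclg2 were lower, and the rest were higher. Over all features, 6.90% had such a p in the lower direction. Acss3, an acyl-CoA synthetase that activates propionate, was the 1 that passed. It had 23.6, 26.4 and 21.3 CPM in ANKO, against 49.6, 86.9 and 88.1 CPM in control (-1.65, SE 0.230, adjusted p = 0.0240). No ANKO library reached the control range, yet Acss3 passed in 1 of the 6 leave-one-out fits, without control 1 (highest adjusted p = 0.127). It did not pass with the muscle covariate (adjusted p = 0.0745) or with the replicate number as a block (edgeR adjusted p = 0.0527). With DESeq2, 5 of the list were called lower and 2 higher.

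Acss3, Slc7a5, Echs1, Slc16a1, Pcx and Cd320 are named because they passed or had the smallest p of their group of genes, and the others here were chosen after their values were seen. The amino acid transporter gene Slc43a1 had 23.7, 13.3 and 15.7 CPM in ANKO, against 44.3, 85.2 and 104.5 CPM in control, and did not pass (-2.15, SE 0.389, adjusted p = 0.0782). Slc7a5, the leucine transporter LAT1, stood on the other side without overlap, at 19.3, 22.0 and 30.0 CPM in ANKO and 13.75, 14.4 and 12.7 CPM in control (0.80, SE 0.172, adjusted p = 0.0724). Slc3a2 (0.55, edgeR adjusted p = 0.22) and Slc7a8 (0.28, edgeR adjusted p = 0.38) were also higher without overlap and did not pass. Echs1, the hydratase shared by valine, isoleucine and fat oxidation, had 64.2, 85.5 and 67.5 CPM in ANKO and 105.9, 115 and 166 CPM in control (-0.83, adjusted p = 0.105). The other 5 genes of these acyl steps did not pass, with log2 fold changes from -0.60 for Hadh, without overlap, through -0.36 for Acaa2 to 0.38 for Hadha, both with overlap.

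In the rest of that list Slc25a44, the mitochondrial carrier for these amino acids, averaged 77.6 CPM in ANKO and 73.8 CPM in control with overlap, and Dld, the E3 subunit shared with other dehydrogenases, 100.8 CPM in ANKO and 114.5 CPM in control. Of the 8 genes of the leucine end product and ketones, the smallest p was that of the monocarboxylate transporter gene Slc16a1 (0.90, adjusted p = 0.121). The other biotin carboxylases Pcx, Acaca and Acacb were abundant and spread widely within each group, with Pcx at 867, 1727 and 1132 CPM in ANKO and 1845, 1256 and 2097 CPM in control (-0.48, adjusted p = 0.580). Cobalamin uptake and use had 6 genes and no call, with Cd320, the cobalamin receptor, at the smallest p (-0.48, adjusted p = 0.331), and Suclg2, a succinyl-CoA ligase subunit, had -0.60 with adjusted p = 0.0706.

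Some members share exonic bases with a gene on the other strand, and no source used here states whether counting used strand. For Aldh6a1, Mccc1 and Oxct1 each measured partner gene had at most 3.94% of the member's counts in any library, for Mut and Bckdha at most 10.5% and 13.6% and for Pcca at most 20.04%. Mccc1 has 2 such measured partners, and its antisense partner B230207O21Rik was not analysed here. Bcat1 shares 337 bases with Gm26666, which had at most 5.65% of its counts. Bcat2 shares 622 bases with 0610005C13Rik on the other strand, which was not analysed here. On the same strand, Hibadh shares 122 bases with Gm24355, which had at most 1.32% of its counts. For Btd the partner Hacl1 shares 108 bases and had 58.7% to 177% of the counts of Btd, which makes the value of Btd uncertain.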

How the data were processed

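RNA of subcutaneous fat from 3 ANKO and 3 control mice was prepared with Qiazol and an RNeasy kit, and Ribo-Zero Gold removed ribosomal RNA, per the labels' protocols. The deposited values are raw read counts per gene symbol, made with STAR 2.0.4b, Subread and featureCounts 1.45 on GRCm38, per the submitters' processing notes. Annotation release and strand setting: not given in the sources used here. Of 40757 lines, 329 exact repeats were dropped, which left 40428. Totals were 19748962 to 23860596 counts per library, and no pair of libraries agreed within counting noise (chi-square per degree of freedom 30.6 to 87.8).

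The count test was edgeR 4.0.16 under R 4.3.3 (quasi-likelihood, robust, TMM scaling, filterByExpr with a minimum count of 10 and total of 15), and p-values were adjusted by Benjamini-Hochberg over all 19272 features at a threshold of 0.05. The common biological coefficient of variation was 0.228 and the median SE of a log2 fold change 0.186. CPM are TMM-scaled. Levels per kilobase use the transcript with the longest coding sequence in GENCODE M21, which also gave coordinates. The fitting step was tested on simulated data. Alternatives were other scalings, filters and dispersion settings, DESeq2 1.42.0, limma-voom (limma 3.58.1), the replicate number as a block, muscle RNA as a covariate and leaving out each library. Every member was accounted for, with library values for those past the threshold or with the smallest p of a branch. Other pathway genes were named where past the threshold or where they had the smallest p of their group, and any named beside these were chosen after their values were seen. The members and lists were chosen with earlier results of these data known. Promoters came from RefSeq on GRCm38.p6. Mmut is listed as Mut and Pc as Pcx.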

Additional observations from a re-analysis of the deposited data

How the results depend on the processing

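Against 11 members called lower, 19 were called with DESeq2, 7 with the muscle covariate and 3 to 13 when a library was left out (3 without ANKO 3, 13 without control 1). RLE and upper-quartile scaling, limma-voom, the non-robust fit and the 1 CPM filter gave 11, and no low-count filter gave 14. No member was called higher in any of the 15 alternatives. Over all features the calls were 212 lower and 94 higher. They were 498 lower and 388 higher with DESeq2, and 95 lower and 38 higher with the muscle covariate. Without ANKO 3 they were 55 lower and 20 higher, and without control 1 they were 221 lower and 35 higher. The share called lower was 69.3% in the edgeR fit, 56.2% with DESeq2, 46.5% without ANKO 1 and 86.3% without control 1.

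For the other pathway genes, 1 was called lower, against 5 with DESeq2, 2 in the non-robust fit, 2 with no filter, 0 with the muscle covariate and 0 to 3 when a library was left out. None was called higher, against 2 with DESeq2 and 1 with no filter. With the replicate number as a block, 9 members were called lower (Dbt, Mut and Oxct1 lost, at adjusted p = 0.0714, 0.0617 and 0.0642, and Hibadh gained, at 0.046), and of the other pathway genes 0 were called lower and 2 higher. Deviations from the group mean had correlations of 0.0746, -0.0333 and -0.0435 between same-numbered samples. Between differently numbered samples they ran from -0.0891 to 0.11. With 3 samples per group these values cannot show whether same-numbered samples share more than a number.

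The median log2 fold change of the members lay between -0.73 and -0.50, and none of the 11 called members changed sign. Signs turned when a library was left out for Bcat1 (-0.041 to 0.59, negative without ANKO 3), Bckdk (-0.14 to 0.051, positive without ANKO 3 or control 3) and the Pcca to Pccb ratio (-0.24 to 0.015, positive without control 1), none of which had passed. The causes were not tested. With 3 mice per group, 20 members stayed above the threshold, and 8 of these were called in some alternative.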
